A study of Homo sapiens with 6 samples.

Results

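The genes described here encode the proteasome, its regulators and its assembly factors. They were taken as every gene with a probe set whose platform annotation gave 1 symbol starting with PSMA, PSMB, PSMC, PSMD, PSME, PSMF or PSMG, with PSMB8 and PSMB9 left out. This gave 48 of the 19775 genes that had such a probe set, measured by 95 probe sets. Of the 48 genes, 40 encode proteasome proteins and 8 share only the prefix. On these arrays a transcript is measured by sets of short oligonucleotides (probe sets), some of which also match related transcripts, and each gene was read from its brightest one. Of the 48 genes, 44 were bright enough to be tested, 39 of them proteasome genes. PSMA8, a testis alpha subunit, was under the brightness limit, with signals from 29.4 to 39.6 in NME2-depleted and from 29.8 to 53.7 in control arrays. The prefix-only genes PSMB8-AS1, PSMD7-DT and PSMD14-DT were also under it. PSMA6 and PSME2 had only probe sets with several symbols, and PSMB11, PSMC5, PSMD7 and PSMD13 had none with that symbol alone, so these 6 genes were not analysed here.

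The proteasome degrades proteins that have been tagged with ubiquitin. Its barrel-shaped 20S core is built from rings of alpha subunits, which form the gate, and rings of beta subunits, some of which cut peptide bonds. The 19S particle caps the core, recognises and unfolds substrates and removes ubiquitin from them. Other caps can replace it, and dedicated chaperones assemble the complex. Cancer cells depend on the proteasome to clear surplus and damaged proteins. When proteasome activity drops, the transcription factor NFE2L1 raises the transcription of nearly all subunit genes together, and interferon induces a separate set of subunits.

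The samples were A549 cells, an established human lung adenocarcinoma line. In 3 samples the cells had been transfected transiently with a small interfering RNA (siRNA) duplex against NME2, a nucleoside diphosphate kinase that also binds DNA, and in 3 with control siRNA duplexes. All were otherwise the same line, and no group without transfection was analysed here. Total RNA of each sample was measured on 1 Affymetrix HG-U133 Plus 2.0 array, and the series asked which transcripts change when NME2 is silenced.

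The NME2 probe set, which also carries the read-through transcript NME1-NME2, fell by 2.78 on the log2 scale (SE 0.19, adjusted p = 0.00032, limma). Its signal was 1920, 3676 and 3216 in the depleted arrays and 17862, 19389 and 21044 in the controls. Epithelial markers (KRT8, KRT18, EPCAM and CDH1, 4 of 4 tested) had summed signals of 45144 to 49812 in depleted and 47498 to 53554 in control arrays. KRT8 and KRT18 made up most of these sums. Without overlap between groups, KRT8 differed by -0.24, EPCAM by 0.71 and CDH1 by 0.21, and none of the 4 passed the adjusted threshold (lowest adjusted p = 0.088, EPCAM, limma). The sums were far dimmer for markers of leukocytes (239 to 384 against 335 to 405), fibroblasts (743 to 874 against 580 to 751) and endothelium (278 to 356 against 201 to 304), and PTPRC, CD3D, LYZ, COL1A2, VWF, CDH5 and KDR were under the brightness limit. The ratio of 3′ to 5′ signal of ACTB, a measure of RNA integrity, was 1.33 to 1.40 in depleted and 1.20 to 1.30 in control arrays, while that of GAPDH averaged 1.02 and 0.99. Control replicate 1 stood apart in interferon-induced genes, as given below. The part of the ACTB ratio and of the epithelial markers in the results was not tested.

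Transcripts of the proteasome differed little between NME2-depleted and control cells. None of the 44 members tested passed an adjusted p of 0.05 in limma, where 67 of all 12406 genes tested, or 0.54%, did. At an unadjusted p under 0.05 there were 3 members, PSMC6, PSMD1 and PSMD3, which is 6.82% of the 44 and compares with 15.0% of all genes. Among the 39 proteasome genes the 3 depleted arrays did not overlap the 3 controls for 6 (15.4%), which compares with 20.6% of all genes. These 6 were PSMA4, PSMC3, PSMC6, PSMD1 and PSMD14, with lower signals after depletion, and PSMG1, with higher ones. The median log2 difference, depleted minus control, was -0.03 over the 39 proteasome genes and 0.00064 over all genes. Of the 44 members 28 had a lower mean after depletion, and of all 12406 genes 6182 did. The count of members became 38 when arrays were centred on their medians, where the median of all genes also moved, to -0.05. In bulk samples fewer cells of a type and less RNA per cell cannot be told apart.

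**Figure D1:**
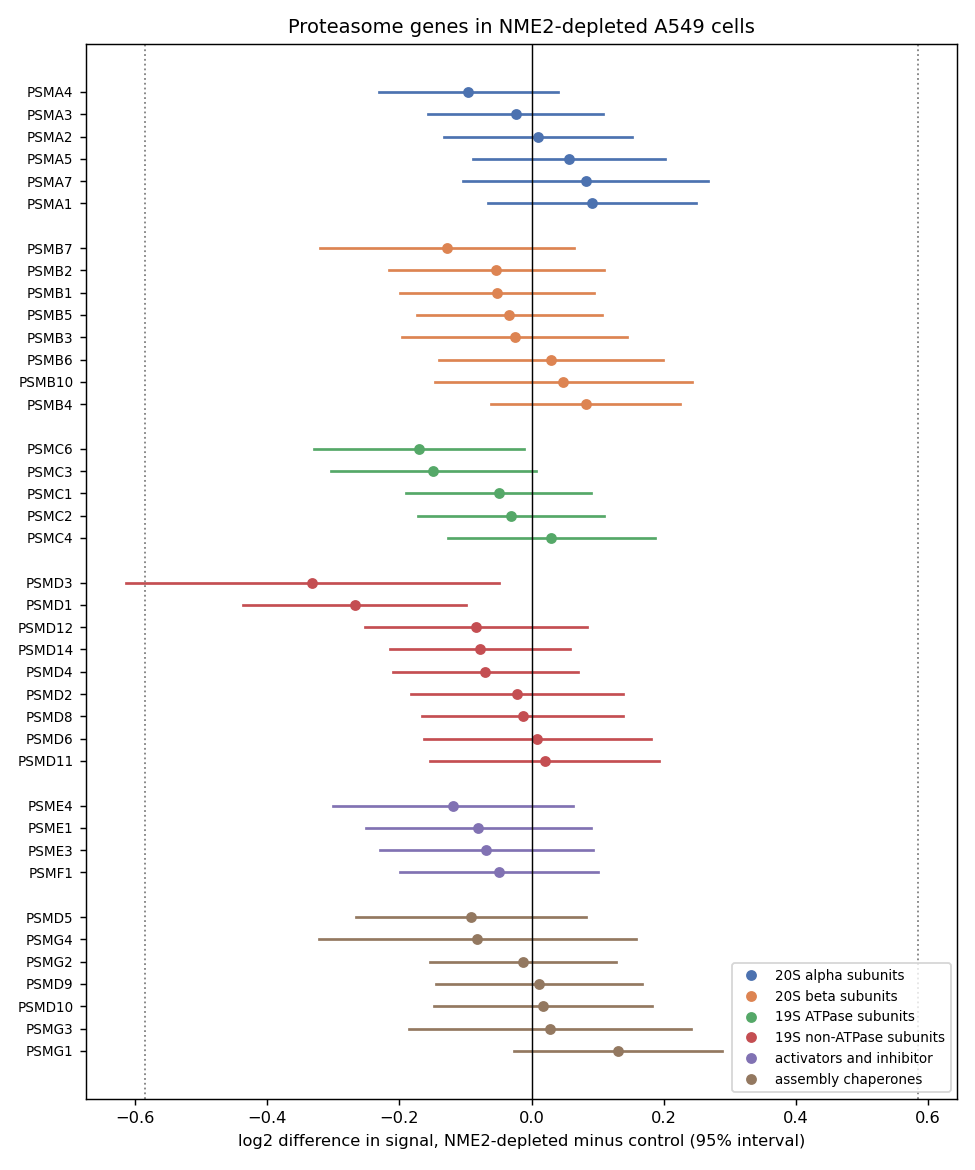
Log2 difference in signal (x axis, NME2-depleted minus control) of the 39 proteasome genes tested, by class, with points for the estimates and lines for 95% intervals from limma on 3 arrays per group. Dotted lines mark a 1.5-fold change either way, and of the 39 intervals that of PSMD3 alone crosses one.

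In the reported limma fit, on signals as scaled by the authors, the intervals were narrow enough to bound most of these differences. The 95% interval of the difference lay within a 1.25-fold change either way for 35 of the 39 proteasome genes (89.7%) and for 32.2% of all genes tested. Within a 1.5-fold change lay 38 of the 39 (97.4%), against 71.5% of all genes. The exception was PSMD3, whose interval ran from -0.61 to -0.05. Differences ranged from -0.33 (PSMD3) to 0.13 (PSMG1), with an SD across the 39 genes of 0.0916 on the log2 scale. Over all genes that SD was 0.250, and the 5th to 95th percentile ran from -0.40 to 0.36. Spread between arrays of a group was also small for the proteasome genes, with a median coefficient of variation of 4.29% against 9.39% for all genes. The median SE of the log2 difference in limma was 0.0725 against 0.120. The proteasome genes were also brighter, with a median signal of 5624 against 799 for all genes. The tested prefix-only genes, at a median signal of 327, had a median coefficient of variation of 11.2%. The limma fit used an intensity trend, which draws each SE toward a value set by the mean signal. The SEs and intervals therefore depend in part on brightness by construction. How large that part is, and the part of brightness in the coefficients of variation, was not tested.

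The alpha subunits of the 20S core frame its gate and dock the caps. Of the 6 tested, 2 had a lower and 4 a higher mean in depleted arrays, with a median log2 difference of 0.03 that became -0.01 under median centring. PSMA4 gave signals of 10049, 10042 and 10534 after depletion against 10931, 10672 and 11116 in controls. All 3 depleted arrays were below all 3 controls, by 0.10 on the log2 scale (SE 0.06, adjusted p = 0.560, limma). PSMA1 had the highest mean difference of the class, 0.09, followed by PSMA7 with 0.08, and both overlapped between groups. PSMA3 differed by -0.02 and PSMA2 by 0.01.

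The beta subunits hold the proteolytic sites. In cells without immune stimulation PSMB6, PSMB7 and PSMB5 carry the caspase-like, trypsin-like and chymotrypsin-like activities. PSMB5, the target of the drug bortezomib, had signals of 8714, 8925 and 9053 after depletion and 8755, 9046 and 9531 in controls, a log2 difference of -0.03 with a 95% interval from -0.17 to 0.11. PSMB6 differed by 0.03 (interval from -0.14 to 0.20). PSMB7 had the lowest difference of the 8 beta subunits tested, -0.13 (interval from -0.32 to 0.06, adjusted p = 0.585, limma), with 12033, 11482 and 13591 against 13110, 12476 and 14987. The groups overlapped for every one of the 8, of which 5 had a lower and 3 a higher mean, and the median was -0.03. PSMB4, a subunit without a catalytic site, had the highest difference, 0.08, and PSMB2 differed by -0.05.

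The ATPase subunits form the ring that unfolds substrates and threads them into the core. Of the 5 tested, 4 had a lower mean in depleted arrays, and the median difference was -0.05. PSMC6 had signals of 3687, 3547 and 3584 after depletion and 4304, 4110 and 3777 in controls. The groups did not overlap, but the highest depleted array and the lowest control lay close together. The log2 difference was -0.17 (SE 0.07, unadjusted p = 0.038, adjusted p = 0.357, limma). PSMC3 followed with -0.15, from 2785, 2780 and 2641 against 2974, 2958 and 3168, again without overlap (adjusted p = 0.406). PSMC2 differed by -0.03 and PSMC4 by 0.03.

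The non-ATPase subunits build the base scaffold and the lid of the 19S particle, and PSMD3 and PSMD1 of this class had the lowest differences of the 39 proteasome genes. PSMD1, the large base scaffold subunit also called RPN2, had signals of 3346, 3076 and 2919 in depleted arrays and 3720, 3926 and 3591 in controls. Every depleted array was below every control, and the control mean was 1.20 times the depleted one. The log2 difference was -0.27 (SE 0.08, unadjusted p = 0.0050, adjusted p = 0.163, limma). PSMD3, the lid subunit RPN3, had 1340, 1994 and 1553 against 1886, 2031 and 2158. Depleted replicate 2 lay inside the control range, and the SD of the depleted arrays, 334, was wider than that of the controls, 136. Its difference of -0.33 (SE 0.13, unadjusted p = 0.025, adjusted p = 0.310, limma) became -0.20 without depleted replicate 1 and -0.49 without depleted replicate 2.

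The other members of this class lay closer to 0. PSMD14, the enzyme of the lid that removes ubiquitin chains, had 6949, 6966 and 6673 after depletion against 7276, 7359 and 7100. These groups did not overlap, at a log2 difference of -0.08 (interval from -0.21 to 0.06). PSMD4, a ubiquitin receptor, differed by -0.07, PSMD6 by 0.01 and PSMD11 by 0.02. Of the 9 tested, 7 had a lower mean in depleted arrays, and the median difference was -0.07. This median was -0.12 under median centring and -0.08 under quantile normalization, but -0.05 when each gene's probe sets were averaged and -0.02 with probe sets shared between transcripts left out. Under the last setting the ATPase median was -0.0044.

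**Figure D2:**
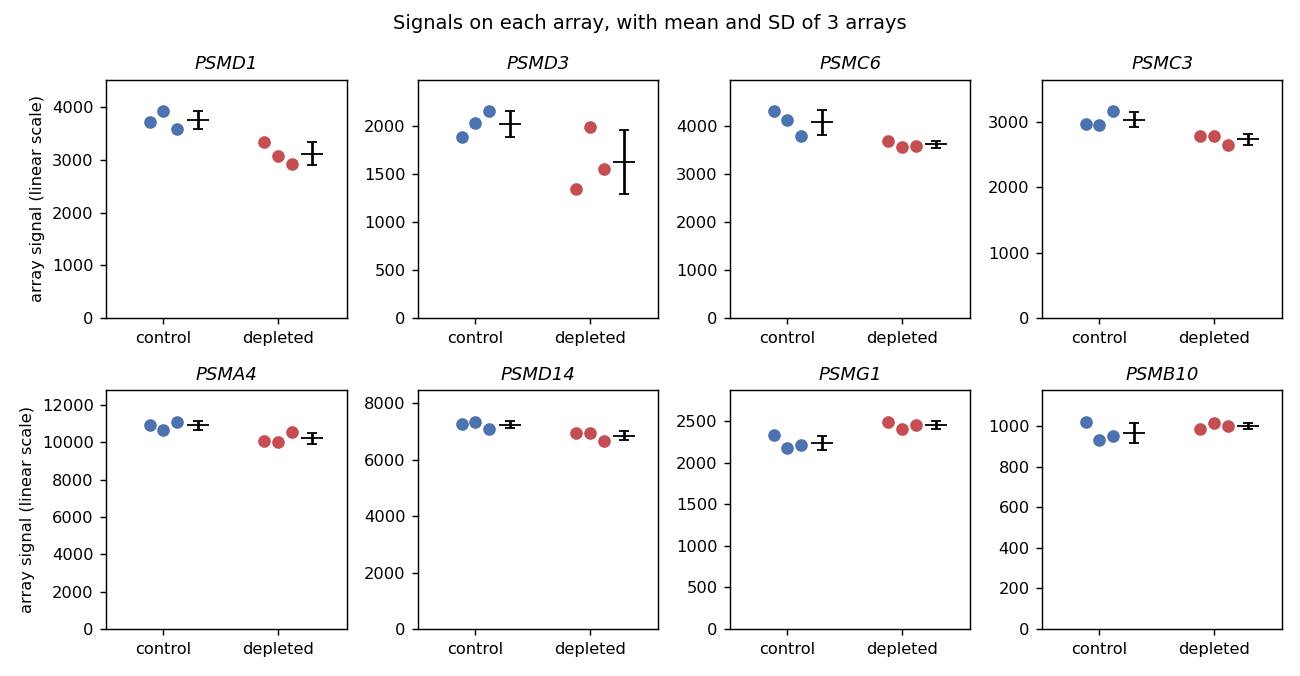
Array signal (y axis, linear scale from 0) of 8 proteasome genes in the 3 control (blue) and 3 NME2-depleted (red) arrays, with black bars for the mean and SD. Shown are the 6 genes whose groups did not overlap, with PSMD3, where depleted replicate 2 reaches the controls, and PSMB10, where the groups overlap.

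Caps other than the 19S particle, and the inhibitor, had lower means in all 4 genes tested, with overlap between groups for each. PSME1, a subunit of the interferon-inducible 11S cap, differed by -0.08 and PSME3, of the related nuclear cap, by -0.07. PSME4, which encodes the large cap PA200, differed by -0.12 (interval from -0.30 to 0.06), and PSMF1, the inhibitor PI31, by -0.05. Their median was -0.07.

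Among the assembly chaperones was the only member whose depleted arrays were all above the controls on its brightest probe set. PSMG1, which with PSMG2 starts the ring of alpha subunits, had signals of 2494, 2398 and 2451 against 2328, 2170 and 2208 in controls. The log2 difference was 0.13 (SE 0.07, interval from -0.03 to 0.29, adjusted p = 0.475, limma). Its partner PSMG2 had 4539, 4489 and 4504 against 4582, 4422 and 4657, with overlap, and a difference of -0.01 (interval from -0.15 to 0.13). PSMG3 differed by 0.03 and its partner PSMG4 by -0.08, and PSMD5, a chaperone of the 19S base, by -0.09. Of the 7 tested, 3 had a lower and 4 a higher mean, with a median of 0.01 that became -0.04 under median centring.

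Read by array, the 39 genes showed no common step between the groups. Each gene's log2 signal was set against its own mean over the 6 arrays, and the median over the 39 genes was -0.04, 0.02 and -0.03 in depleted replicates 1 to 3 and 0.01, 0.01 and 0.04 in controls. Depleted replicate 2 lay among the controls. The non-ATPase subunits gave -0.03, 0.01 and -0.08 in depleted arrays and 0.06 in each control, so their medians did not overlap. For the ATPase subunits depleted replicate 2, at -0.01, was above control replicate 3, at -0.02. The 20S subunits divided the arrays another way. Their beta subunits had their lowest medians in the replicate 1 array of each group, -0.06 after depletion and -0.05 in the control, and their highest in control replicate 3, 0.08. The alpha subunits were also lowest in these replicate 1 arrays, at -0.05 and -0.03.

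**Figure D3:**
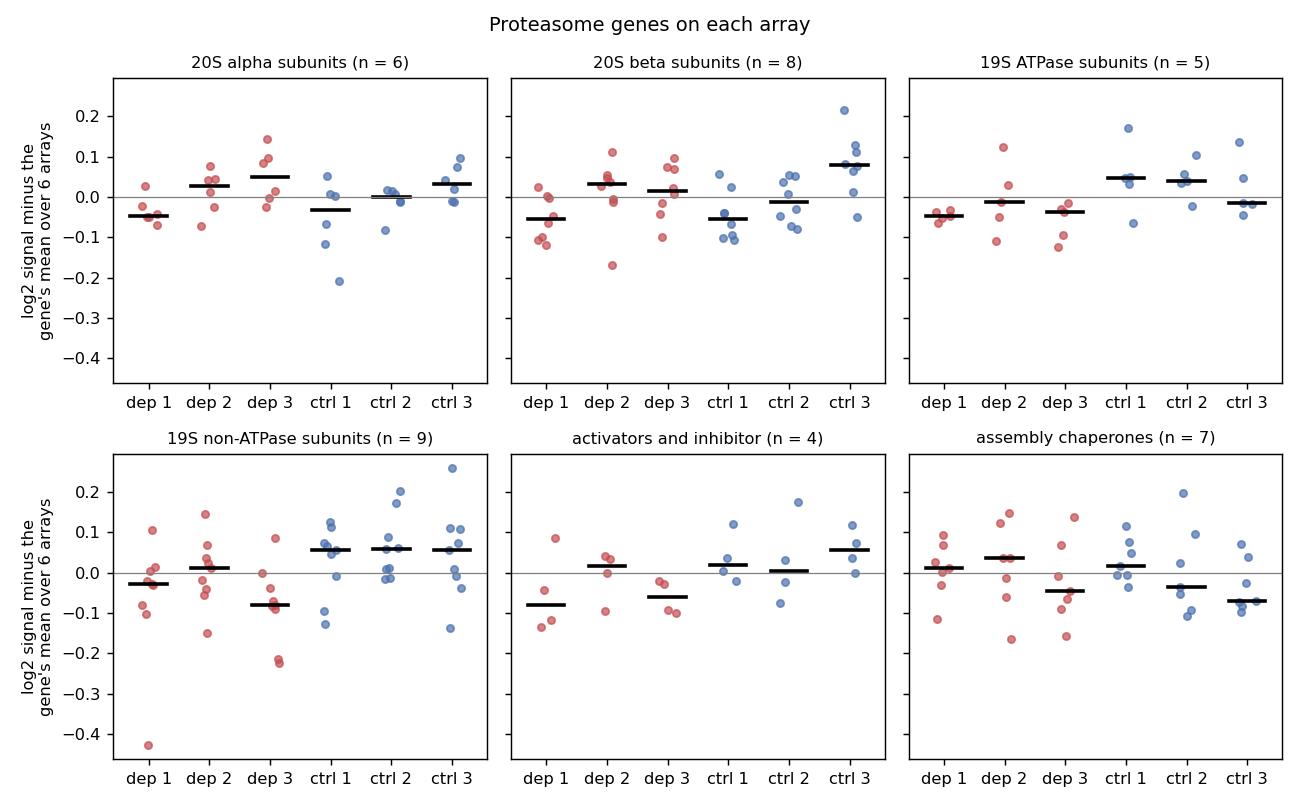
Log2 signal of each proteasome gene minus its mean over 6 arrays (y axis), by class, for the 3 NME2-depleted (dep, red) and 3 control (ctrl, blue) arrays, with points for genes and black bars for the class median. The bars of the non-ATPase subunits are at 0.06 in each control and at -0.03, 0.01 and -0.08 in the depleted arrays, while the 20S bars overlap.

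Several genes were measured by more than 1 probe set, and these did not always give the same sign. Of the 80 member probe sets tested none passed an adjusted p of 0.05, where 0.396% of all did, and 7 had an unadjusted p under 0.05 (8.75%), where 12.9% of all did. Of the 20 proteasome genes with several tested probe sets, 13 had both signs, and the median distance between the highest and the lowest difference of a gene was 0.137 on the log2 scale. PSMD1 was one gene whose lower signal rested on 1 probe set. Its other probe set gave 2451, 2684 and 2946 after depletion and 2959, 2619 and 2895 in controls, with overlap and a difference of -0.07 (unadjusted p = 0.436, limma).

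PSMA7 had the lowest p among the member probe sets, on its dimmer one. That probe set gave 3715, 3885 and 3982 in depleted arrays and 3295, 3143 and 3322 in controls, without overlap, a difference of 0.25 (SE 0.07, unadjusted p = 0.0041, adjusted p = 0.151, limma). On the brightest PSMA7 probe set the difference was 0.08 with overlap. PSMA2 differed by 0.01 on its brightest probe set and by -0.20 on the other, where 1122, 1073 and 1049 were all below 1226, 1235 and 1276 (unadjusted p = 0.031, adjusted p = 0.332). The widest distance, 0.57, was that of PSMD9, a chaperone of the 19S base. Its dimmer probe set gave 203, 176 and 142 against 261, 312 and 199, where depleted replicate 1 was above control replicate 3, and the difference was -0.56 (unadjusted p = 0.025, adjusted p = 0.310, limma). Its brightest probe set differed by 0.01. One of the dimmer probe sets of PSME3 gave -0.31 (unadjusted p = 0.042), against -0.07 on the brightest.

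**Figure D4:**
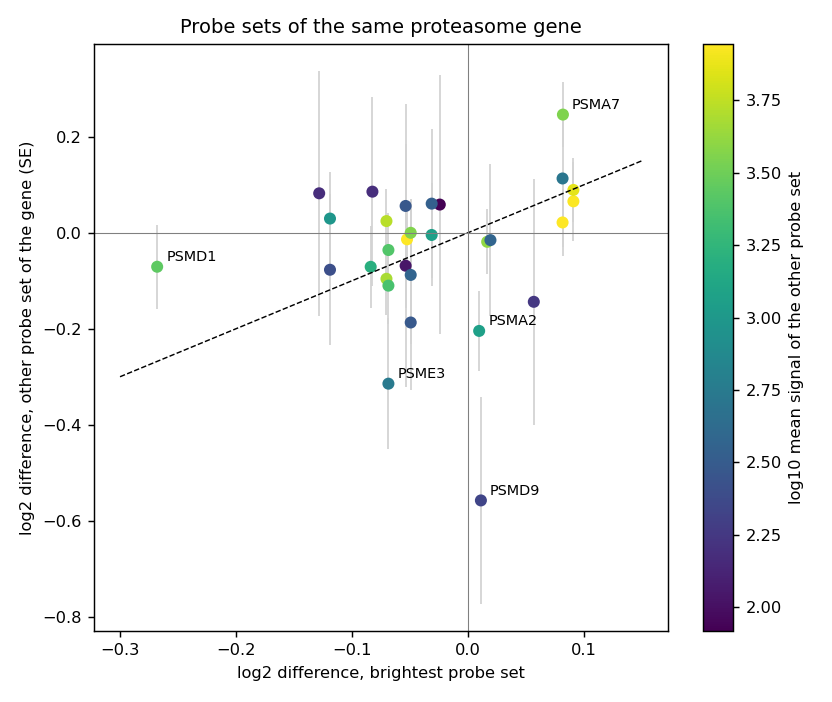
Log2 difference, NME2-depleted minus control, of the brightest probe set of a proteasome gene (x axis) and of each of its other tested probe sets (y axis, with SE as grey lines), 30 points in 20 genes coloured by mean signal. The dashed line marks equal differences. The named points include the 4 with an unadjusted p under 0.05 (PSMA7, PSMA2, PSME3 and PSMD9) and PSMD1.

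PSMB10 and PSME1, the 2 interferon-inducible members analysed here, differed little between groups, and other interferon-induced genes are given beside them. In a reference list of such genes, all 9 tested (MX1, IRF9, IFIT1, IFIT2, IFIT3, OAS1, IFI44, ISG15 and IFI6) had lower signals in every depleted than in every control array, at a median log2 difference of -1.65, and 2 of them (MX1 and IRF9) passed the adjusted threshold. Of all genes tested, 20.6% had groups that did not overlap, in either direction, and 0.54% passed. The reference genes were named after their values were seen, so their counts describe these arrays and are no test. IFI44 reached the brightness limit of 71.7 through the controls, with mean signals of 43.3 in depleted and 317 in control arrays. Set against the 6-array mean, the list's median was -1.01, -0.71 and -0.90 in depleted arrays and 2.08, 0.03 and 0.55 in controls, so that control replicate 1 stood above the other 2. PSMB10, the subunit that replaces PSMB7 in the immunoproteasome, had 984, 1015 and 999 after depletion against 1023, 931 and 950, a difference of 0.05 (SE 0.09, interval from -0.15 to 0.24, adjusted p = 0.865, limma). PSME1 had 4310, 4841 and 4660 against 5139, 4490 and 4980, with an interval from -0.25 to 0.09. Both overlapped between groups. For both genes control replicate 1 was the highest control, and without it the differences were 0.09 and -0.04. Without this array none of the 44 members passed the adjusted threshold, and the lowest adjusted p was 0.259 (PSMD1, limma).

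The promoters of these 2 genes are shown because each holds the core letters of an interferon-stimulated response element (GAAA, any 2 bases, GAAA) on one strand. The sequences are RefSeq's for GRCh38.p14, written from 5′ to 3′ on the gene's strand, with matches in capitals. That of PSMB10 is chr16:67936851-67937100 on the minus strand, the 250 bases before the start, and its match covers bases -21 to -12. That of PSME1 is chr14:24135944-24136223 on the plus strand, 250 bases before and 30 after the start. It holds the match in its reverse orientation at bases 6 to 15 after the start, and the core letters of an antioxidant response element, TGACNNNGC, at -86 to -78.
PSMB10: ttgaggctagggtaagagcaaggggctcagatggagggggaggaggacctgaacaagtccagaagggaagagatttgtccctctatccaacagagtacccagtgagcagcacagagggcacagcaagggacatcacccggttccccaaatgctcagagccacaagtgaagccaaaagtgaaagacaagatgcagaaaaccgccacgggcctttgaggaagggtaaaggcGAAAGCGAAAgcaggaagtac
PSME1: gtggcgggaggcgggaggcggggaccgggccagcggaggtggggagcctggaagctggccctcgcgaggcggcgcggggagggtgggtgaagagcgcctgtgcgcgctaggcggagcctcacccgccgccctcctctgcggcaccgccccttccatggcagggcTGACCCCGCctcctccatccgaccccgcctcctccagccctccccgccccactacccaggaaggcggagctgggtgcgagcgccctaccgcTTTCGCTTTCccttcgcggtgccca
Of all 27305 RefSeq promoters of 300 bases, 3.65% held these core letters on either strand, and of the 33 proteasome promoters that matched by symbol 5 did (15.2%), those of PSMA4, PSMB4, PSMB10, PSME1 and PSMG4. The median log2 difference was -0.08 in the 5 genes with the match and -0.03 in the others. The 5 had both signs, with PSMA4 at -0.10, PSMG4 and PSME1 at -0.08, PSMB10 at 0.05 and PSMB4 at 0.08. A match is a description of letters and not a binding site.

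PSMD3, with the lowest difference of the members, has a promoter that holds 3 of the searched motifs. The 250 bases before its start, chr17:39980557-39980806 on the plus strand, hold CCAAT in its reverse orientation at -217 to -213, TTCNNNGAA (the core of a gamma-activated site) at -94 to -86, and TGACNNNGC, the letters that NFE2L1 and NFE2L2 are known to bind, at -37 to -29. Further matches reach past the bases shown, TTCNNNGAA across the start at -5 to 4 and TGACNNNGC in reverse orientation at 34 to 42 after it.
PSMD3: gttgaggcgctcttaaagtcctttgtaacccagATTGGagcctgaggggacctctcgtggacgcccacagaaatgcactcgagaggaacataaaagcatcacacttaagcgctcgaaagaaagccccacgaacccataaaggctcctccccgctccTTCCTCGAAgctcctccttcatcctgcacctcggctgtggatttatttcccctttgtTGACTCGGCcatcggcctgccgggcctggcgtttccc
In PSMD1, the proteasome gene with the next lowest difference, the 250 bases before the start held none of the searched motifs. Its TGACNNNGC match lay at bases 40 to 48 after the start. TGACNNNGC was found in 11 of the 33 proteasome promoters (33.3%) and in 13.6% of all. CCAAT, the box bound by NF-Y, was found in 15 (45.5%) and 35.7%, and TTCNNNGAA in 4 (12.1%) and 7.88%. Genes with TGACNNNGC had a median log2 difference of -0.08 and those without it -0.03. With CCAAT the median was -0.03 and without it -0.05.

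Other genes of the pathway, from 3 lists, also held no call. Among 9 tested genes of the transcription control of proteasome genes none passed the adjusted threshold, and the median difference was -0.07. An unadjusted p under 0.05 was found for 1 (11.1%, against 15.0% of all genes). NFE2L1 differed by -0.10 (interval from -0.27 to 0.08) and NFE2L2 by 0.03. MAFF, which encodes a small MAF protein, a partner of these factors, had 2457, 2380 and 2087 against 2276, 1554 and 1618, with overlap through control replicate 1, and a difference of 0.36 (adjusted p = 0.282, limma). NFYC, a subunit of NF-Y, differed by -0.17 and MAFG by -0.20, values that became -0.05 and 0.02 when each gene's probe sets were averaged. Among 15 partner proteins none passed, 2 (13.3%, against 15.0% of all genes) had an unadjusted p under 0.05, and the median was -0.05. ADRM1, the ubiquitin receptor that docks on PSMD1, had 3306, 3326 and 2829 against 3800, 3672 and 3577, without overlap (difference -0.23, adjusted p = 0.264, limma). PITHD1 differed by 0.30 with overlap (adjusted p = 0.331) and FBXO7, a partner of PSMF1, by -0.16, which became 0.03 with the mean of its probe sets.

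Among 13 genes of ubiquitin and substrate delivery none passed, 2 (15.4%, against 15.0% of all genes) had an unadjusted p under 0.05, and the median was -0.08. The groups did not overlap for 4 of the 13 (30.8%, against 20.6% of all genes). VCP, the ATPase that extracts ubiquitinated proteins from complexes and membranes, had 8190, 7550 and 7391 against 8732, 8763 and 8406, without overlap (difference -0.16, adjusted p = 0.331, limma). NPLOC4, a cofactor of VCP, had 1965, 1889 and 1963 against 2186, 2118 and 2726, also without overlap (difference -0.26, adjusted p = 0.293). BAG6, a chaperone of stray membrane proteins, differed by -0.13.

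The 8 genes that share only the prefix do not encode proteasome proteins. PSMC3IP, a cofactor of recombination in meiosis, differed by 0.06 and PSME3IP1, which encodes a protein that binds PSME3, by -0.14. The noncoding PSMA3-AS1 differed by 0.04, PSMG3-AS1 by -0.03 and PSMD6-AS2 by -0.28 (SE 0.24, adjusted p = 0.686, limma). PSMD6-AS2 was dim, with mean signals of 108 against 132 and overlap between groups, and its interval, from -0.81 to 0.26, was the widest of the members.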

How the data were processed

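Sample titles gave the groups, of 3 arrays each, and the replicate numbers. The arrays of a group are called biological replicates without a description of separate cultures, so a p-value covers only the spread among these arrays. Sources differ on the supplier of the siRNA. The deposited table holds an intensity signal for each probe set, which the authors made with GCOS 1.1.1 per the submitters' processing notes. The arrays had been scaled alike, with a mean of 500.06 to 500.07 after 2% was trimmed at each end, which hides a shift common to all transcripts. Without detection calls, no dim gene is called absent here. Arrays have no read depth, and their number limits the precision.

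Of 54675 probe sets 62 controls were left out. Signals under 1 (0.327%) were set to 1 and log2 was taken. Tested were probe sets whose mean log2 signal reached the median of all, a signal of 71.7 (27307, of which 22984 had 1 symbol and covered 12406 genes). The platform annotation of 2016 gave 1 symbol for 41091 probe sets, several for 1801 and none for 11721, and NME2 is the only gene read from one with several symbols. limma 3.58.1 in R 4.3.3 (lmFit, and eBayes with an intensity trend) gave two-sided tests with Benjamini-Hochberg adjustment over all tested probe sets, and differences are log2 NME2-depleted minus control. Each gene was read from its probe set of highest mean log2 signal. The procedure was tested on simulated data. Their noise was independent and normal at the fitted means and spreads, without links between arrays or an outlying array. The simulation therefore cannot show how the procedure fares with such features.

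The members, the lists and the rule for named genes were chosen with earlier results of these data known. Named were NME2, the 2 highest and 2 lowest differences of each class, the catalytic and interferon-inducible subunits, PSMD4, PSMD14 and PSMF1, genes with probe sets of opposite sign of which 1 had an unadjusted p under 0.05, prefix-only genes, and the 3 of lowest p in each pathway list. Other genes were named after their values were seen: the reference and marker genes, PSMG2, NFE2L1, NFE2L2, the dimmer probe sets of PSMD1, PSMA7 and PSME3, and genes whose promoters are listed. The 20 alternatives covered normalization, offset, filter, variance model, array weights, replicate block, probe sets, gene value, test, members and leaving out each array.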

Additional observations from a re-analysis of the deposited data

How the results depend on the processing

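None of the members, the partner proteins, the transcription control genes or the ubiquitin and delivery genes passed the adjusted threshold under any of the 20 alternatives, and the lowest adjusted p of a member ranged from 0.0740 to 0.403. The number of members with an unadjusted p under 0.05 ranged from 1 to 6. The proteasome genes median log2 difference, over all members, was -0.03 and became -0.080 under median centring, where that of all genes was -0.05. Leaving out each array in turn gave -0.05 to -0.02. Of 30 named proteasome genes 12 changed sign under at least 1 alternative and 18, among them PSMD1, PSMD3, PSMC6 and PSMG1, under none that gave a value. The PSMB10 log2 difference was -0.00055 under median centring. PSMD1 moved to -0.17 as the mean of its probe sets, and it had no value when probe sets shared between transcripts were left out, nor had PSMA7. The medians of the alpha, beta and assembly classes changed sign under at least 1 alternative and those of the ATPase, non-ATPase and activator classes under none, but with shared probe sets left out the 19S non-ATPase subunits median log2 difference was -0.02 in place of -0.07 and the 19S ATPase subunits median log2 difference -0.0044 in place of -0.05. When the probe sets of a gene were averaged, FBXO7 and MAFG changed sign, and no other named pathway gene did under any alternative that gave a value.

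The NME2 difference of -2.78 kept its size but not its call without an intensity trend (NME2 probe set log2 difference -2.78, adjusted p = 0.228). The same held for an equal-variance t-test on the log2 signals (adjusted p = 0.204). Of all genes past the threshold, 67 in the reported setting, the count was 21 without a filter, 110 with a filter at the 75th percentile, 28 with the mean of probe sets, 0 without the trend or by the t-test, and 5 to 39 without 1 array, with 5 without depleted replicate 3 and 6 without control replicate 3. Deviations from the group means of same-numbered arrays correlated at 0.114, 0.0805 and 0.0702 and each array correlated best with its own number in the other group, a hint from the data and not the design. With the replicate number as a block 284 genes and 0 members passed, 5 members had an unadjusted p under 0.05, the lowest adjusted p was 0.0740 (PSMD1), and the members' median stayed at -0.03. The array number, 3 per group, limits the precision, and genes under the brightness limit were not tested.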
